A study of Homo sapiens with 4 samples.

Results

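The genes described here make, sense and remove prostaglandin E2. They are the phospholipase PLA2G4A, the cyclooxygenases PTGS1 and PTGS2, the synthases PTGES, PTGES2 and PTGES3, the receptors PTGER2, PTGER3 and PTGER4, and the dehydrogenase HPGD. They were chosen by name, as all deposited transcripts whose identifier belongs to 1 of these 10 genes in GENCODE v29. Of the 10 genes 9 had rows, 32 transcripts in all out of the 100809 in the table, and these 9 were among the 22031 genes to which transcripts could be assigned. PTGS1 had no row and was not analysed here.

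Poly(A)-selected RNA came from U87, an established human glioblastoma line, 48 h after lipid-mediated transfection of a single-stranded oligonucleotide at 50 nM. In 2 libraries the oligonucleotide was a mimic of tRF-3009a, a fragment of a transfer RNA. In the 2 control libraries it was ssGL2, a single-stranded control mimic. The labels number the libraries 1 and 2 within each group, without saying what the number stands for or whether the libraries came from separate cultures. The p-values therefore measure only the spread between these 4 libraries, which may be technical.

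Prostaglandin E2 is a lipid signal made in a short chain of steps. Cytosolic phospholipase A2 frees arachidonic acid from membranes, a cyclooxygenase turns it into prostaglandin H2, and a terminal synthase makes prostaglandin E2, which leaves the cell and acts on G-protein-coupled receptors. PTGS2 is the inducible cyclooxygenase, known for its short-lived mRNA and for its expression in inflamed tissue and in many gliomas, and HPGD starts the breakdown of the product.

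The 4 libraries held 28860788 to 33848402 reads, recovered from the deposited normalized values. Libraries of the same group differed by more than 2-fold at 3434 genes between the controls and at 3506 genes between the mimic libraries. All 6 genes listed as marks of this line had rows, VIM, encoding vimentin, at 121239 to 276546, and 5 of them were lower and 1 higher in number 2. Of all genes tested 24.2% were lower and 26.0% higher. Of the 2 genes listed as deleted in U87, CDKN2A was at 0 to 11.2 and MTAP at 23.9 to 41.5. Of 8 leukocyte markers 4 had no row, and PTPRC, CD14 and ITGAM stayed at or below 6.72. CSF1R, a macrophage receptor gene, was at 440 and 340 in the number 1 libraries against 53.8 and 52.4 in the number 2 libraries. With CSF1R included, the summed leukocyte level ran from 62.9 to 66.1 in number 2 and from 352 to 456 in number 1. The summed endothelial level was 63.1 and 79.5 in number 2 against 238 and 246 in number 1, and the epithelial sum was 215 and 239 against 72.7 and 72.9. Of 5 epithelial markers 2 had no row, ESRP1 was at 173 and 201 in number 2 against 3.60 and 13.5, and EPCAM was lower in number 2, at 11.4 and 16.8 against 41.4 and 45.7. The part of these markers in the differences between numbers described here was not tested.

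PTGS2 had the largest difference between number 2 and number 1 of the 9 genes. The gene lies on chromosome 1 from 186671791 to 186680427 on the minus strand (GRCh38). Its normalized value was 360 (control 1) and 414 (mimic 1) in number 1, against 3551 (control 2) and 2824 (mimic 2) in number 2. Both number 2 libraries lay far above both number 1 libraries, whichever oligonucleotide was used. The ratio of number 2 to number 1 was 9.85 in the controls and 6.81 in the mimic libraries. Over both groups the means were 387 ± 38.2 (SD, n = 2) in number 1 and 3188 ± 514 in number 2. The log2 difference was 3.03 ± 0.13 (SE), with an adjusted p of 3.53e-07 (limma over all genes). Of the 16535 genes tested, 171 had a larger positive difference. In RNA from whole cultures, a change in the number of expressing cells cannot be told apart from a change in RNA per cell.

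**Figure D1:**
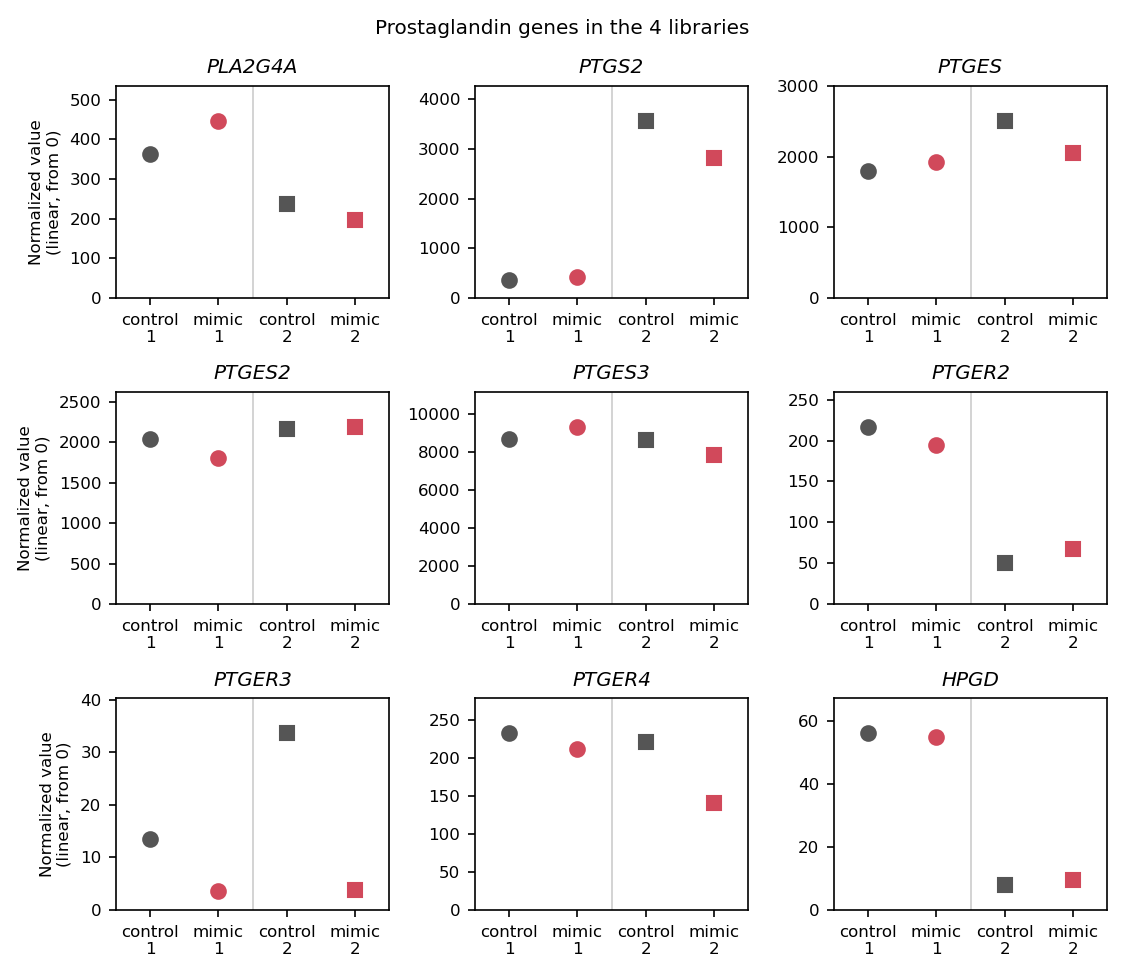
Normalized value (linear axis from 0) of each of the 9 genes in the 4 libraries, with grey for control, red for mimic, circles for number 1 and squares for number 2. PTGS2 runs from 360 to 3551 and is high in both squares, while PTGER2, HPGD and PLA2G4A are low in both squares.

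The promoters of PTGS2 and of the receptor gene PTGER2 are shown because these genes differed between numbers in opposite directions. Each sequence is from RefSeq (GRCh38.p14), runs 5′ to 3′ on the gene's strand and ends before the first annotated transcribed base. The capitals mark matches on either strand to a TATA box (TATAAA), a C/EBP-type site (TTNCNNAA), a cAMP response core (TGACG), an NF-kB-type site or an ATF4-type site (TGATGNAA). The 1st sequence is chr1:186680428-186680673 on the minus strand and the 2nd is chr14:52314062-52314304 on the plus strand.
PTGS2: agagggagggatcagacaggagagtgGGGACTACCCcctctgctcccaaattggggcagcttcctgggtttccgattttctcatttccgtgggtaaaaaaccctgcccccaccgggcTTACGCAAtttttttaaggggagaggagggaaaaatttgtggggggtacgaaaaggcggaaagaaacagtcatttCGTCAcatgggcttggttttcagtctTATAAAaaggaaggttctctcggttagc
PTGER2: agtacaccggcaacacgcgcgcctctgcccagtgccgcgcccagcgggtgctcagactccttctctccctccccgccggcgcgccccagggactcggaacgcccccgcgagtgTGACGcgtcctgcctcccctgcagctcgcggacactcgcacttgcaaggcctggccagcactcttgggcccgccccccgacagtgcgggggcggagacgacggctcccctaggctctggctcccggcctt

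In the PTGS2 promoter the NF-kB-type match began 224 bases before the RefSeq start, the C/EBP-type match 133 bases before it, the cAMP response core 58 bases and the TATA box 32 bases before it. In the PTGER2 window the capitals mark a cAMP response core 137 bases before the start. These distances count back from the RefSeq start, and 4 bases lie between that start and the end of the printed PTGS2 window and 7 bases in the case of PTGER2. SP1 boxes (GGGCGG) and E-boxes (CANNTG) were searched too and are not in capitals. The PTGER2 window held 2 SP1 boxes and an E-box, and the PTGS2 window held no SP1 box and an E-box that overlapped the cAMP response core. Among 35116 promoter windows of 250 bases, 19.7% held the NF-kB-type letters, 33.2% the C/EBP-type letters, 21.2% the cAMP response core, 10.7% the TATA letters, 3.14% the ATF4-type letters, 42.6% an SP1 box and 61.8% an E-box. Of the 10 members, 9 had a promoter entry, with 13 windows in all. PTGS1 was among these 9, and PTGER3 had no entry. No window held the ATF4-type letters. Letters marked in the printed windows also occurred in other members. The cAMP response core was in windows of HPGD and PTGES3, and the NF-kB-type letters in windows of PTGER4 and PTGES3. The C/EBP-type letters were in windows of PTGS1 and PTGES2, and the TATA letters in a window of PTGS1. A match is a description of the letters and not of a bound factor.

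The PTGS2 signal came almost entirely from the full-length coding transcript. PTGS2-201, of 4514 nt, held 92.5% to 98.7% of the gene's value in the 4 libraries. Tested as a single transcript, it differed between numbers by 3.03 ± 0.19 on the log2 scale (limma over all transcripts, adjusted p = 0.00903). A transcript annotated for nonsense-mediated decay was at 24.95 and 0 in number 1 and at 113 and 122 in number 2, which did not pass (adjusted p = 0.179). The 3' UTR of PTGS2-201 has 2562 nt with 22 copies of ATTTA, the core of AU-rich elements that shorten the life of inducible mRNAs. Of the 12746 coding genes compared, 2.10% had at least as many. PTGER3 had more, 33 copies in 5584 nt, a count that 0.541% of genes reached. Per length, PLA2G4A had a like density of 8.46 copies per kb against 8.59 for PTGS2, and PTGES2 had 0 copies. PACERR, a non-coding RNA transcribed away from the PTGS2 start on the other strand, was at 17.7 and 10.8 in number 1 and at 42.6 and 53.2 in number 2.

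PLA2G4A, which encodes the calcium-dependent cytosolic phospholipase A2 that supplies arachidonic acid, was lower in the number 2 libraries. It lies on chromosome 1 from 186828953 to 186988981. Its value was 364 (control 1) and 445 (mimic 1) in number 1, against 238 (control 2) and 197 (mimic 2) in number 2. The groups defined by number did not overlap, and the log2 difference was -0.89 ± 0.16 (SE, limma, adjusted p = 0.00152). As a single transcript PLA2G4A-201 did not pass over all transcripts (adjusted p = 0.0759). The PLA2G4A and PTGS2 mRNAs thus had opposite signs between numbers.

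The terminal synthases differed little. PTGES, the microsomal synthase that is commonly induced together with PTGS2 (chromosome 9, 129738331 to 129753047), was at 1798 (control 1) and 1934 (mimic 1) in number 1, against 2505 (control 2) and 2053 (mimic 2) in number 2. Both number 2 values were above both number 1 values, by a log2 difference of 0.28 ± 0.11 that fell just short of the threshold (limma, adjusted p = 0.0544). It passed in 5 of the 17 alternative fits, with adjusted p from 0.0137 to 0.434 over all of them. PTGES2, a second membrane-associated synthase (chromosome 9, 128120693 to 128128462), was at 2038 and 1803 in number 1 and at 2164 and 2185 in number 2, with an adjusted p of 0.123. PTGES3, the cytosolic synthase that also serves as the Hsp90 co-chaperone p23 (chromosome 12, 56663341 to 56688408), was at 8661 and 9283 against 8641 and 7809, with an adjusted p of 0.239. PTGES3 has 5 annotated processed copies in the genome, of which 1 had a row, with values of 0 to 14.2. Reads shared with such copies may have been split between them, so the PTGES3 value is uncertain to that extent. For all 3 synthases 1 coding transcript held most of the value, 93.5% to 97.1% for PTGES-201, 88.2% to 92.5% for PTGES2-202 and 84.1% to 87.7% for PTGES3-201.

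Among the receptors, PTGER2 was lower in number 2. It encodes the EP2 receptor, which raises cAMP through Gs, and lies on chromosome 14 from 52314305 to 52328606. Its value was 216 (control 1) and 194 (mimic 1) in number 1, against 50.4 (control 2) and 67.8 (mimic 2) in number 2. The number 1 libraries were 4.29 times as high in the controls and 2.87 times as high in the mimic libraries. The log2 difference was -1.79 ± 0.22 (SE, limma, adjusted p = 0.000149), and PTGER2-201 also passed as a single transcript (adjusted p = 0.0329).

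PTGER4, encoding the EP4 receptor, which also couples to Gs (chromosome 5, 40679498 to 40693735), was at 233 and 212 in number 1 and at 221 and 141 in number 2. Its values overlapped between numbers, and the difference did not pass (limma, adjusted p = 0.236). TTC33, a gene on the other strand, overlaps PTGER4 and was at 402 to 629. Whether the read assignment used strand is not given in the sources used here, so reads of the pair could have been exchanged. PTGER3, encoding the Gi-coupled EP3 receptor (chromosome 1, 70852353 to 71047808), was the scarcest member, with 13, 30, 4 and 4 recovered reads in control 1, control 2, mimic 1 and mimic 2. It did not pass between numbers (adjusted p = 0.594).

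HPGD, which encodes the dehydrogenase that inactivates prostaglandin E2, was lower in number 2 (chromosome 4, 174490177 to 174523154). Its value was 56.1 (control 1) and 54.9 (mimic 1) in number 1, against 7.85 (control 2) and 9.55 (mimic 2) in number 2. The number 2 values rest on 7 and 10 recovered reads. The log2 difference was -2.55 ± 0.38 (SE, limma, adjusted p = 0.000483), and 145 of the genes tested had a larger negative one. No HPGD transcript passed singly. In control 2 the whole value lay on a transcript annotated for nonsense-mediated decay, and in mimic 2 none of it did.

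Of the 9 genes tested, 4 thus differed between numbers, 1 higher (PTGS2) and 3 lower (PLA2G4A, PTGER2 and HPGD). Among all genes tested 50.2% passed the same test, 26.0% higher and 24.2% lower, so a share of 4 in 9 is near the background. The values of the numbers did not overlap for 7 of the 9 genes, against 75.7% of all genes. The median absolute log2 difference was 0.66 over the members and 0.45 over all genes, and the signed medians were -0.13 and 0.008. Of the 20 member transcripts tested 2 passed, against 8.32% of all transcripts. With any 1 library left out, 0 transcripts passed in the table as a whole.

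**Figure D2:**
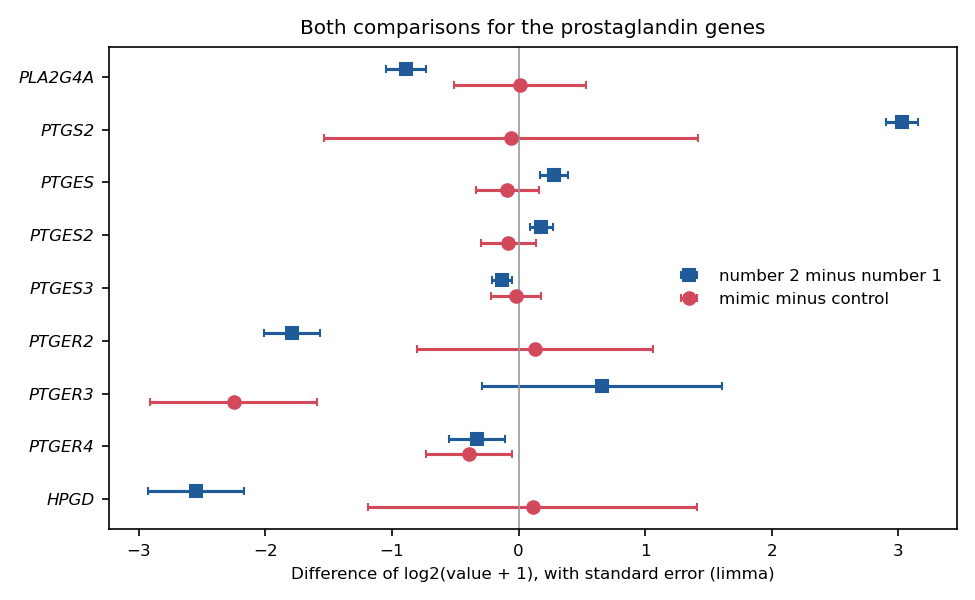
Difference of log2(value + 1) for each gene with its standard error from limma, with blue squares for number 2 minus number 1 and red circles for mimic minus control. The blue points of PTGS2 (3.03), PTGER2 (-1.79) and HPGD (-2.55) lie far from 0. The red points of these genes lie between -0.06 and 0.13, with standard errors of 0.93 to 1.48. The red point farthest from 0 is that of PTGER3 (-2.25 ± 0.66).

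The study's own comparison, the tRF-3009a mimic against the control, gave no difference past the test for any of the 9 genes in fits with the group as the only term. All had an adjusted p of 1.00 with limma and with edgeR, and with limma 0 of 16535 genes passed (0%), 26 of them at an unadjusted p under 0.05. With DESeq2 also 0 genes passed, and 23 had an unadjusted p under 0.05. PTGS2 had means of 1956 ± 2256 (SD, n = 2) in the controls and 1619 ± 1704 with the mimic, and its log2 fold change was -0.06 ± 1.48 (SE). The spread between libraries of a group was thus far larger than the difference of the means. These fits count the differences between numbers as error, so they could miss a difference made by the mimic. With the number added as a replicate block the SE of PTGS2 was 0.11, and the results of such fits are given below. Within number 1 its log2 difference between mimic and control was 0.20, and within number 2 it was -0.33. PLA2G4A (0.29 and -0.27), PTGES (0.11 and -0.29), PTGES3 (0.10 and -0.15), PTGES2 (-0.18 and 0.01), PTGER2 (-0.15 and 0.42) and HPGD (-0.03 and 0.25) likewise changed sign between numbers. With 1 library per group within a number, these differences could not be tested. Some were close to 0, and HPGD in number 2 rests on 7 and 10 recovered reads. The share of all genes with such a change of sign was not counted.

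Only PTGER3 and PTGER4 were lower in both mimic libraries than in both controls, 2 of 9 genes against 12.4% of all genes whose groups did not overlap in either direction. PTGER3 was at 13.5 and 33.6 in the controls and at 3.60 and 3.82 in the mimic libraries, where each value rests on 4 recovered reads. The log2 fold change was -2.25 ± 0.66 (SE), and -1.62 with a pseudocount of 5. PTGER3 was the only member with an unadjusted p under 0.05 (limma with the group as the only term, adjusted p = 1.00). Of the 16535 genes tested, 23 had a larger negative fold change. With a mean of 13.6 over the 4 libraries, PTGER3 passed the filter of at least 10 only through its control values. Its rank is therefore a description and no support for a difference. AL031429.1, which overlaps PTGER3 on the other strand, was at 28.1 and 30.3 in the controls and at 19.8 and 19.9 in the mimic libraries. PTGER4 was at 233 and 221 in the controls and at 212 and 141 with the mimic, and its log2 fold change was -0.39 ± 0.34 (SE). The other receptor of the set, PTGER2, had 133 ± 117 in the controls and 131 ± 89.4 in the mimic libraries. The fold changes of PTGES (-0.09 ± 0.25), PTGES2 (-0.08 ± 0.22), PTGES3 (-0.02 ± 0.20), PLA2G4A (0.01 ± 0.52) and HPGD (0.11 ± 1.30) were smaller than their errors. The median absolute fold change was 0.09 for the members and 0.11 for all genes.

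Levels of different genes were compared as the value per kb of transcript, summed over a gene's transcripts. PTGES3 was the most abundant, at 4183 to 4977 per kb. PTGES followed at 1010 to 1408 and PTGES2 at 843 to 1010, and these ranges overlapped. PTGS2 ran from 90.8 to 840, so that in number 1 it was near PLA2G4A (126 and 155) and in number 2 it stood at 678 and 840, below PTGES2 at 993 and 1010. The range of PLA2G4A, 68.4 to 155, overlapped that of PTGS2. PTGER4 (40.2 to 65.9) and PTGER2 (21.2 to 90.7) overlapped each other. In number 1 PTGER2 was the higher of the pair, at 90.7 and 81.5 against 65.9 and 63.8, and in number 2 PTGER4 was, at 63.3 and 40.2 against 21.2 and 28.5. HPGD (4.15 to 29.2) and PTGER3 (0.515 to 4.82) were the lowest.

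**Figure D3:**
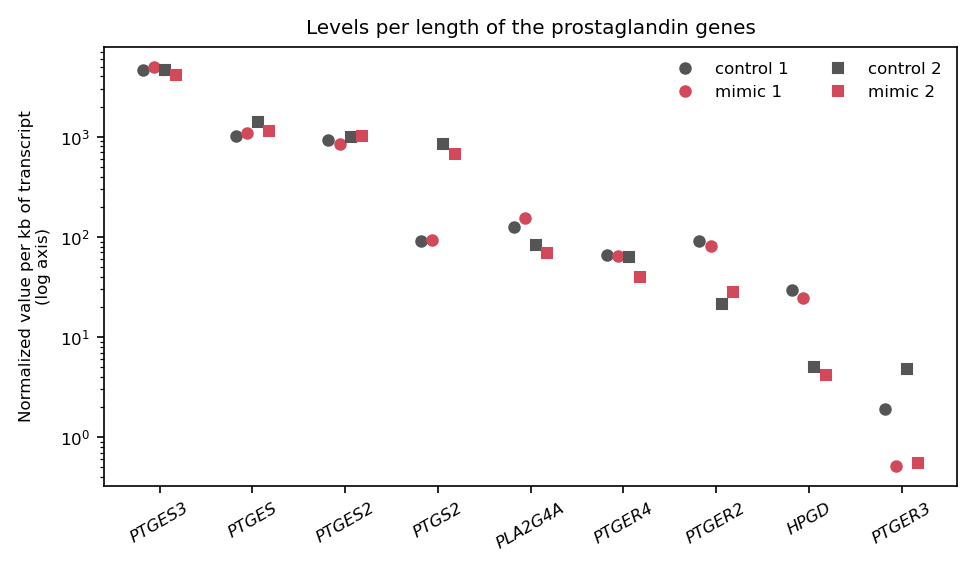
Normalized value per kb of transcript (log axis) for the 9 genes in order of their mean, 4 points a gene, with grey for control, red for mimic, circles for number 1 and squares for number 2. PTGES3 lies at 4183 or above in every library, and PTGS2 splits into 2 pairs by number.

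Genes with patterns most like a member's were found by the Euclidean distance of the centred log2 values over the 4 libraries, a measure that 4 points make loose. Nearest to PTGS2 were ANKRD22 (distance 0.117), SLC7A11 (0.122) and RTN4R (0.178). SLC7A11, the cystine transporter gene, was at 1030 (control 1) and 1129 (mimic 1) in number 1, against 9806 (control 2) and 8572 (mimic 2) in number 2. Nearest to HPGD were CEP55 (0.137), a gene of cytokinesis, IDH2 (0.143) and NEURL1B (0.163). CEP55 was at 4826 and 5198 in number 1 and at 781 and 864 in number 2. Nearest to PTGER2 were CCDC74B, CCDC28B and MAB21L1 at distances of 0.0919 to 0.126. For PTGER3 no gene was nearer than 1.02, the distance of ZBTB12.

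Lists of other genes around this pathway place these values. Both the lists and the members were chosen with earlier results of these data known, so their directions are a description. The counts of each list stand beside 26.0% of all genes tested that were higher in number 2 and 24.2% that were lower. The other phospholipase A2 genes, listed with the regulators PLAA and ANXA1, had 3 of 8 tested higher and 2 lower in number 2, with a median log2 difference of 0.16. PLA2G4C, a calcium-independent relative of PLA2G4A, rose from 38.5 and 41.4 in number 1 to 172 and 178 in number 2 (limma, adjusted p = 5.1e-05). PLA2G4B had a log2 difference of 1.72 and PLA2G16 of 0.69. PLA2G15 (-0.44) had the sign of PLA2G4A. In the mimic PLA2G15 had the smallest p of this list, at a log2 fold change of -0.23.

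Of the other prostanoid synthases and reductases 2 of 10 tested were higher in number 2 and 4 lower, with a median of -0.41. Of all genes tested 26.0% were higher and 24.2% lower. AKR1C3, a reductase that makes prostaglandin F from earlier prostaglandins, was at 551 and 550 in number 1 and at 254 and 172 in number 2. CBR1, a carbonyl reductase, had a log2 difference of -0.64, and PTGR2, a reductase of prostaglandin breakdown products, of 0.65. PTGDS, a prostaglandin D synthase gene, had the smallest p in the mimic (limma, unadjusted p = 0.567), at -0.61 and with values of 2.70 to 19.0. Of the transporters ABCC4, which exports prostaglandins, was at 2563 to 2981, a log2 difference of 0.12 that did not pass (adjusted p = 0.289), and SLCO3A1 had -0.61.

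Of the other prostanoid receptors 3 were tested, and 1 was higher in number 2 and 2 lower. TBXA2R, the thromboxane receptor gene, was at 185 and 137 in number 1 and at 45.9 and 44.9 in number 2 (limma, adjusted p = 0.00024). PTGFR, the prostaglandin F receptor gene, was at 36.4 and 46.7 against 10.1 and 2.87. PTGER1, the EP1 receptor gene, was at 5.20 and 4.50 against 20.2 and 23.8, a difference in the opposite direction to PTGER2 (adjusted p = 0.0113).

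Of 11 genes known as inducers or transcription factors of PTGS2, 10 were tested, and 7 were higher in number 2 and 0 lower, with a median of 1.15, where 26.0% of all genes tested were higher and 24.2% lower. IL1A, encoding the cytokine interleukin 1 alpha, was at 66.5 and 79.2 in number 1 and at 5115 and 4170 in number 2. IL6 was at 262 and 212 against 10931 and 10816, and CEBPD, a C/EBP factor gene, at 154 and 131 against 1086 and 965. JUN, at 8364 to 9796, did not pass (adjusted p = 0.745), and in the mimic it had the smallest p of the list at a fold change of -0.18. Of the 10 genes for RNA-binding proteins known to act on PTGS2 mRNA, 4 were higher and 2 lower, with a median of -0.01. ZFP36, encoding the decay factor tristetraprolin, was at 554 and 351 in number 1 and at 1096 and 1159 in number 2, HNRNPD had a log2 difference of -0.53 and RBM3 of 0.26.

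The cAMP response genes, which lie downstream of EP2 and EP4 among many other receptors, did not move to 1 side. Of 11 tested 3 were higher in number 2 and 3 lower, with a median of 0.03, where 26.0% of all genes were higher and 24.2% lower. DUSP1, a MAP kinase phosphatase gene, was at 2326 and 2158 in number 1 and at 6537 and 5766 in number 2, and PDE4D, a cAMP phosphodiesterase gene, had a log2 difference of 1.44. RGS2, a regulator of G-protein signalling, had -1.55. SIK1 had the smallest p of this list in the mimic, at -0.17.

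Growth and stress genes also differed between numbers. All 6 proliferation genes tested were lower in number 2, with a median of -1.81, and all 6 integrated stress response genes were higher, with a median of 3.99. Of all genes tested 24.2% were lower and 26.0% higher. MKI67, a mark of dividing cells, was at 13268 and 13035 in number 1 and at 2003 and 2108 in number 2. ASNS, the asparagine synthetase gene, was at 857 and 914 against 18173 and 17176. The part of these programmes in the prostaglandin genes was not tested. No gene of any of these lists passed in the mimic comparison, and the list medians there ran from -0.23 to 0.13. The smallest unadjusted p there was 0.351 (limma), so having the smallest p of a list is no sign of a difference.

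**Figure D4:**
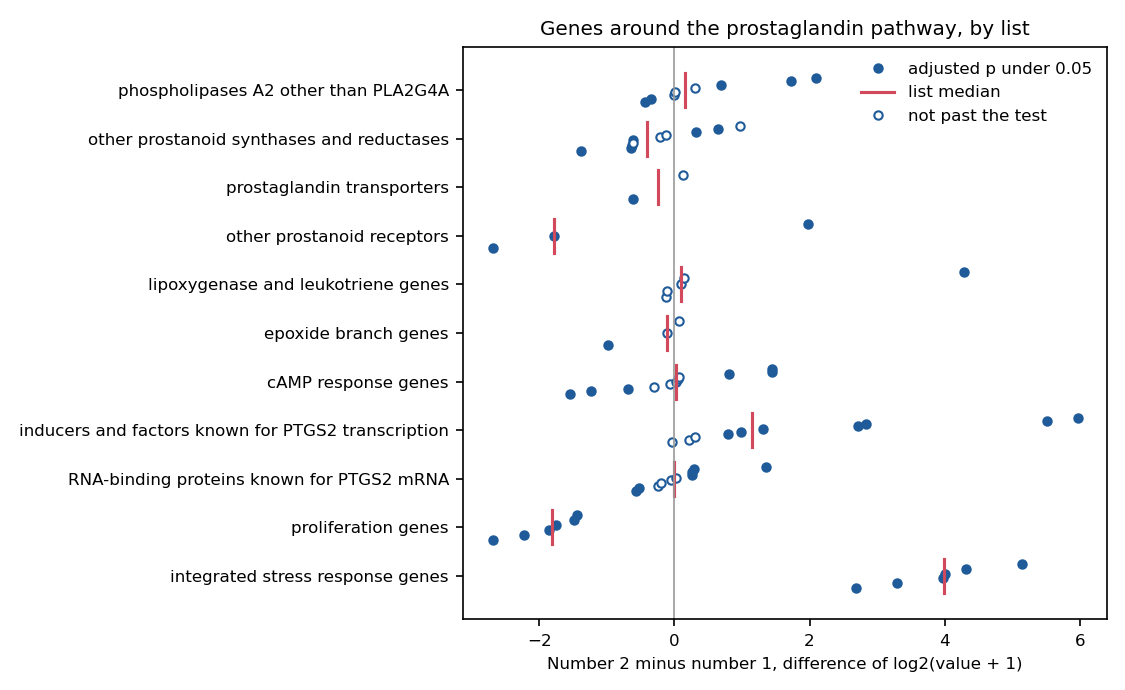
Difference of log2(value + 1) between number 2 and number 1 for each tested gene of 11 lists, with filled points for an adjusted p under 0.05, open points for the others and a red line for the list median. The genes known to induce PTGS2 have a median of 1.15 and reach 5.97, while those of the cAMP response spread around 0.03.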

How the data were processed

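Per the submitters' processing notes the authors used kallisto, DESeq2 and hg38, without versions or an annotation release. The deposited table holds a normalized signal per transcript for 4 libraries, and no other sample column was present (0). Low values were whole multiples of 1 step per library for 95.6% to 99.7% of them (tolerance 0.1), and rounded quotients gave the recovered reads. The step varied slightly between transcripts, so reads of high transcripts are approximate. The lowest row sum was 10 reads, so rarer transcripts were not analysed here.

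Of 100809 transcripts 90643 (89.9%) matched GENCODE v29 without version and were summed per gene, and unmatched ones held 3.25% to 3.56% of each library. Genes with a mean of at least 10 were tested by limma with a trend on log2(value + 1), two-sided, Benjamini-Hochberg adjusted at 0.05, for mimic against control and for number 2 against number 1. Fold changes on this scale understate changes of low genes. Alternatives were other pseudocounts, filters and scalings, edgeR, DESeq2 and limma voom on recovered reads, the other factor as a term, and each library left out. Only the limma fits of genes were also run on simulated counts, and the outcome is not reported here. Members and lists were chosen with earlier results of these data known. The text names all members, up to 3 genes a list with the smallest p between numbers, the 1 with the smallest p in the mimic, and the 3 nearest patterns. For checks of the line and of other cell types, genes were named after their values were seen. Fits ran in R (4.3.3), with DESeq2 1.42.0, limma 3.58.1 and edgeR 4.0.16. Tables and plots were made in Python (3.11.15), using pandas 2.3.3, matplotlib 3.10.9 and numpy 2.4.6.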

Additional observations from a re-analysis of the deposited data

How the results depend on the processing

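Each group had 2 libraries, and low members rest on few reads: PTGER3 on 4 in each mimic library, HPGD on 7 and 10 in number 2. All comparisons between oligonucleotides and between numbers use the same 4 libraries. Libraries with the same number deviated together from their group means (2 pairs, r = 0.745 across genes), but the labels do not say what the number marks. With the number as a replicate block, 117 genes passed for mimic against control with limma (0.708% of those tested) and 91 with edgeR (0.550%). Of the members 0 passed with limma and 1 with edgeR, PTGER3, at a log2 fold change of -2.54 and an adjusted p of 0.0394, against 0.112 with limma. In the other settings with all 4 libraries PTGER3 did not pass. The filter at a mean of at least 50 left out PTGER3 and HPGD. For mimic against control the sign turned for PLA2G4A with DESeq2 size factors (-0.0), for PTGES3 with upper quartile scaling (0.01) and for PTGER2 with edgeR and with DESeq2 (-0.02 in both). Leaving out each library in turn, fold changes ranged from -0.58 to 0.60 for PLA2G4A, -1.71 to 1.58 for PTGS2, -0.33 to 0.15 for PTGES, -0.22 to 0.06 for PTGES2, -0.15 to 0.10 for PTGES3, -0.91 to 1.17 for PTGER2 and -1.23 to 1.46 for HPGD. Only PTGER3 (-2.88 to -1.62) and PTGER4 (-0.68 to -0.09) kept their sign there. Between numbers, the genes that passed ranged from 5163 without mimic 2 and 5430 without control 2 to 7942, and the members from 4 to 5. PTGER3 ranged from -0.76 to 2.08, and PTGS2 from 2.87 to 3.20. PTGES passed with a pseudocount of 5, a mean of at least 50, treatment as a term (limma and edgeR) and without mimic 2, and PTGES2 without control 1 (adjusted p = 0.0249). Between numbers 4865 transcripts passed, against 0 with any library left out and 1795 with treatment as a term (3.07%). Of the member transcripts 2 passed, against 0 and 1 in these fits. Over the longest transcript alone PTGES3 was at 2926 per kb against 4609. Beyond the imbalance of numbers in mimic fits with 1 library left out, the causes of these shifts were not tested.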

Other observations

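The neighbouring branches of arachidonic acid metabolism were tested in the same way. Of 12 lipoxygenase and leukotriene genes 5 had no row and 5 were tested, and 1 was higher in number 2, where 26.0% of all genes were higher. ALOX5AP, encoding the protein that presents arachidonic acid to 5-lipoxygenase, was at 1.04 and 0 in number 1 and at 22.4 and 32.3 in number 2 (limma, adjusted p = 0.00116). ALOX5 itself had no row and was not analysed here. LTA4H, encoding leukotriene A4 hydrolase, was at 873 to 1028 and did not pass (adjusted p = 0.277), and the leukotriene B4 receptor gene LTB4R was at 28.0 to 41.1. LTB4R2 had the smallest p of the list in the mimic comparison (limma, unadjusted p = 0.53), at a log2 fold change of 0.28.

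Of 6 genes of the epoxide branch 3 were tested. CYP2J2, an epoxygenase gene, was at 48.9 and 58.5 in number 1 and at 24.7 and 28.6 in number 2 (limma, adjusted p = 0.0246). EPHX1, the microsomal epoxide hydrolase gene, was at 1115 to 1313 and did not pass (adjusted p = 0.396). CYP4F3, at 10.5 to 17.9, had the smallest p of this list in the mimic comparison (limma, unadjusted p = 0.351), at a log2 fold change of -0.51.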
